A study of Mus musculus with 10 samples.

Results

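The genes described here are 10 genes of MHC class II antigen presentation: the chain genes H2-Aa, H2-Ab1 and H2-Eb1, the invariant chain gene Cd74, the DM genes H2-DMa, H2-DMb1 and H2-DMb2, the DO genes H2-Oa and H2-Ob, and the transactivator gene Ciita. They were taken by name from a fixed list and matched through their Ensembl identifiers, and they are 10 of the 53379 genes counted in each library. The measurements are strand-specific RNA sequencing counts from dendritic cells sorted from mouse spleen, in a series on autophagy in dendritic cell subsets and atherosclerosis. All mice were C57BL/6 and 16 weeks old, and they were either Atg16l1 +/+ (wild type, WT) or Atg16l1 -/- (knockout, KO). Atg16l1 encodes a scaffold that directs the attachment of LC3 to membranes in autophagy. The 10 libraries form 4 groups by labelled subset and genotype: CD11b WT and CD8 WT with n = 3 each, and CD11b KO and CD8 KO with n = 2 each. Spleens were processed from individual mice, and the labels do not say whether a CD11b and a CD8 library came from the same animal. The labels also do not state how, or in which cells, Atg16l1 was deleted, nor the diet. Every group was sorted on high MHC class II and high CD11c protein, and then split into CD11b+ CD8- cells and CD11b- CD8+ cells, so the product of several of these genes was part of the gate in all 4 groups.

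MHC class II molecules are pairs of an alpha and a beta chain that carry peptides from endosomes to the cell surface, where CD4 T cells read them. New chains bind the invariant chain, which blocks the peptide groove and directs them to endosomes. There proteases trim the invariant chain to a short remnant called CLIP, the DM heterodimer exchanges CLIP for other peptides, and the DO heterodimer restrains DM. Transcription of the chain, invariant chain and DM genes depends on CIITA, which binds no DNA itself and is recruited by a complex of RFX, CREB and NF-Y factors assembled on the X and Y boxes of the promoters. Dendritic cells are among the cells with constitutive class II expression.

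Marker genes of the subsets went against the subset labels in all 10 libraries. Cd8a stood between 448 and 577 CPM (counts scaled to the library total) with the label CD11b, and between 0.904 and 5.86 CPM with the label CD8, in 5 libraries each. Itgam, the CD11b gene, was found at 1.58 to 2.73 CPM and 75.9 to 104 CPM in the same order. All 9 markers tested of type 1 conventional dendritic cells were higher at the label CD11b in WT, and all 12 markers of type 2 conventional dendritic cells were lower. Groups are therefore called by their labels throughout, and a direction between labels is not one between named cell types. The genotype labels matched the targeted gene: Atg16l1 ranged over 13.3 to 32.6 CPM in 6 WT libraries, against 1.73 to 3.30 CPM in 4 KO libraries. Gene counts per library were 9467704 to 13768884, and 14528 genes were tested. In bulk RNA, fewer cells of a type and less RNA per cell cannot be told apart.

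The 10 genes together took 2.91% to 3.46% of all gene counts of a library. Between the labels, 5 of the 10 genes passed the test in WT, where 29.5% of all genes tested passed (edgeR quasi-likelihood test, Benjamini-Hochberg adjusted p under 0.05). Of these, 3 were higher at the label CD11b, beside 13.8% of all genes, and 2 were lower, beside 15.7%. In KO, 4 of the 10 passed, beside 22.8% of all genes, with 2 higher (10.3% of all genes) and 2 lower (12.5%). The 4 genes that passed in both genotypes were H2-DMa and H2-DMb1, higher at the label CD11b, and H2-DMb2 and H2-Oa, higher at the label CD8. Libraries of the 2 labels did not overlap for 7 of the 10 genes in WT, beside 41.5% of all genes, and for 7 of the 10 in KO, beside 58.7%. The median log2 difference over the 10 genes was 0.07 in WT and 0.05 in KO, and over all genes it was 0.00 and -0.01. The 3 chain genes and Ciita did not pass in either genotype, while all 3 DM genes and the DO gene H2-Oa passed in both.

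**Figure D1:**
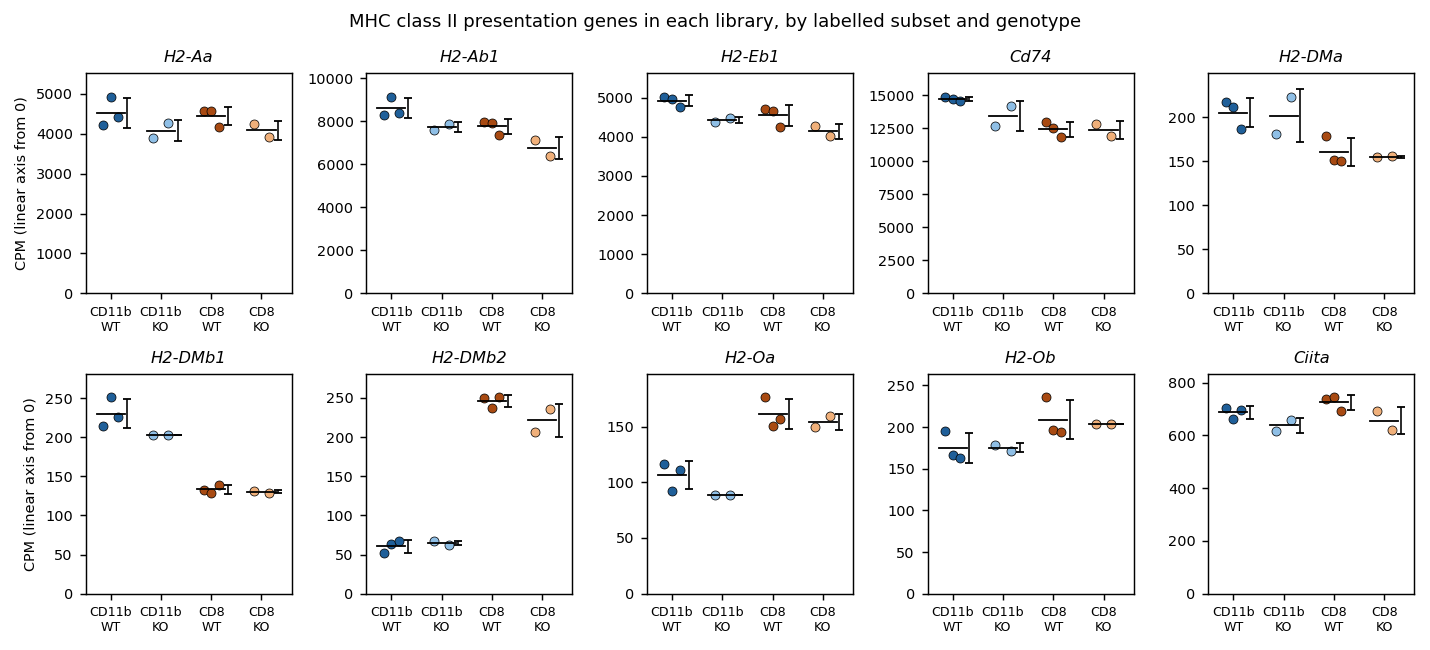
Level of each of the 10 genes in CPM (vertical axes, linear from 0) in each library (points) of the 4 groups, with the mean (line) and SD (bar) of each group. H2-DMb2 lay at 51.4 to 67.2 CPM with the label CD11b and 206 to 251 CPM with CD8, while H2-DMb1 lay in the opposite order.

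The promoter windows of 4 genes of the set and of the related H2-Eb2 are shown because they hold the X and Y boxes in their usual order, and those of H2-Aa and H2-Oa because only the Y box was found there. Sequences are from RefSeq on GRCm38.p6 and are written 5′ to 3′ on the strand of the gene, with matches in capitals to the X core AACNNATG and the Y box TGATTGG, which do not overlap each other. The letters of these motifs were chosen after the windows had been seen. For H2-DMb1 and H2-DMb2 only 30 bases around the X core are printed. Their Y boxes were found as well, 21 bases after the X core, but lie outside the printed stretch.
H2-Eb1, chr17:34305756-34305820, plus strand: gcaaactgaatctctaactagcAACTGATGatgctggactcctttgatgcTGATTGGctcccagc
H2-Ob, chr17:34238796-34238860, plus strand: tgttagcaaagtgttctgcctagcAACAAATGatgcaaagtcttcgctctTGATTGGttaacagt
H2-Eb2, chr17:34325523-34325587, plus strand: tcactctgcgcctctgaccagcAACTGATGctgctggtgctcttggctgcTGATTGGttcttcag
H2-Aa, chr17:34287859-34287923, minus strand: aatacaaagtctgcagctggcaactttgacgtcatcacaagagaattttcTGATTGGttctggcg
H2-Oa, chr17:34092284-34092340, plus strand: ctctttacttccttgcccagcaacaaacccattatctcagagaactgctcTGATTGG
H2-DMb1, chr17:34153088-34153117, plus strand, X core only: gtttacctagtAACTGATGatgctaggctg
H2-DMb2, chr17:34145117-34145146, plus strand, X core only: gtttacctattAACCGATGatgctaggcta

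Of the 10 genes, 7 had a promoter in the table, and H2-Ab1, Cd74 and Ciita did not. The 250 bases before each start were searched, on both strands for either motif alone. The X core followed by the Y box was searched on the strand of the gene only. The X core was found in 7.71% and the Y box in 7.23% of 32851 promoters. An X core followed by a Y box with 8 to 40 bases between them was found in 13 promoters (0.0396%), among them those of H2-Eb1, H2-DMb1, H2-DMb2 and H2-Ob and that of H2-Eb2. The 2 boxes were 18 bases apart in H2-Ob, 20 in H2-Eb1 and H2-Eb2, and 21 in H2-DMb1 and H2-DMb2. Neither motif was found in the windows of H2-DMa, which says only that these letters are not in them. The windows of H2-DMb1 and H2-DMb2, whose levels went in opposite directions between labels, shared 58 of 65 aligned bases over the module. In GENCODE, H2-DMb1 begins at 34153072 and H2-DMb2 at 34143307, so the windows printed for them lie inside the genes of that annotation. Whether these stretches act as promoters in these cells was not tested. In the 30 bases printed they differed at 3 positions counted from the 5′ end of the H2-DMb1 window, G10T, T15C and G30A, of which T15C lies inside the X core at a position where the motif takes any base.

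The chain genes H2-Aa and H2-Ab1 encode the alpha and beta chains of I-A, and H2-Eb1 encodes the beta chain of I-E. H2-Aa (ENSMUSG00000036594, GRCm38 chromosome 17, 34282744 to 34287823) stood at 4210, 4928 and 4426 CPM in CD11b WT 1 to 3 and at 3894 and 4270 CPM in CD11b KO 1 and 2. In CD8 WT 1 to 3 it stood at 4578, 4562 and 4182 CPM, and in CD8 KO 1 and 2 at 4253 and 3917 CPM. Genotypes overlapped within each label and labels within each genotype, and the highest library was 1.27 times the lowest. The log2 difference between the labels was 0.03 ± 0.07 (SE; edgeR adjusted p = 0.835) in WT and -0.00 ± 0.08 (adjusted p = 0.997) in KO.

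H2-Ab1 (ENSMUSG00000073421, chromosome 17, 34257689 to 34269419) stood at 8309, 9143 and 8388 CPM in CD11b WT 1 to 3 and at 7591 and 7889 CPM in CD11b KO 1 and 2. The CD8 WT libraries gave 7985, 7941 and 7371 CPM in order of number, and the CD8 KO libraries 7140 and 6385 CPM. Within each genotype the libraries labelled CD11b were above those labelled CD8, and within each label the WT libraries were above the KO libraries. The log2 difference between the labels was 0.15 ± 0.06 (SE; edgeR adjusted p = 0.0678) in WT and 0.19 ± 0.07 (adjusted p = 0.0632) in KO, and it did not pass in either. It passed in WT without CD11b WT 1 (adjusted p = 0.0443) or CD8 KO 2 (0.0407), and in KO without CD11b WT 1 (0.0469), CD11b WT 2 (0.0475) or CD8 KO 1 (0.0305).

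H2-Eb1 (ENSMUSG00000060586, chromosome 17, 34305867 to 34316674) stood at 5019, 4969 and 4758 CPM in CD11b WT 1 to 3 and at 4373 and 4480 CPM in CD11b KO 1 and 2. Values at the label CD8 were 4715, 4664 and 4248 CPM in WT 1 to 3 and 4281 and 4010 CPM in KO 1 and 2. The libraries labelled CD11b were the higher ones within each genotype, but the difference did not pass. Between labels the log2 difference was 0.11 ± 0.06 (SE; edgeR adjusted p = 0.18) in WT and 0.09 ± 0.07 (adjusted p = 0.436) in KO. The I-E alpha chain gene is disrupted in the C57BL/6 strain, so its beta chain lacks a partner there. The pseudogene entry H2-Ea-ps did not pass the filter on low counts.

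Cd74 (ENSMUSG00000024610, chromosome 18, 60803848 to 60812652) encodes the invariant chain and was the most abundant of the 10 genes, between the 4th and 8th gene by counts in each library. It stood at 14882, 14744 and 14541 CPM in CD11b WT 1 to 3 and at 12640 and 14221 CPM in CD11b KO 1 and 2. In CD8 WT 1 to 3 it stood at 12947, 12485 and 11803 CPM, and in CD8 KO 1 and 2 at 12843 and 11889 CPM. The 3 CD11b WT libraries were the highest of all 10, and the CD11b KO libraries overlapped with those labelled CD8. Cd74 was higher at the label CD11b in WT, by a log2 difference of 0.25 ± 0.06 (SE; edgeR adjusted p = 0.00143), or 1.19-fold. In KO the difference was 0.12 ± 0.07 (adjusted p = 0.251) and did not pass in edgeR, while limma-voom called it (adjusted p = 0.0291). The difference between these effects was 0.13 ± 0.09 (adjusted p = 0.947).

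The DM genes encode the heterodimer that releases CLIP, with H2-DMa for the alpha chain and H2-DMb1 and H2-DMb2 for alternative beta chains. H2-DMa (ENSMUSG00000037649, chromosome 17, 34119541 to 34139101) stood at 217, 212 and 186 CPM in CD11b WT 1 to 3 and at 181 and 223 CPM in CD11b KO 1 and 2. The CD8 WT libraries gave 178, 151 and 151 CPM in order of number, and the CD8 KO libraries 154 and 155 CPM. Every library labelled CD11b was above every library labelled CD8. The log2 difference was 0.36 ± 0.11 (SE; edgeR adjusted p = 0.0122) in WT and 0.38 ± 0.13 (adjusted p = 0.0352) in KO. The call in WT was lost without CD8 WT 2 (adjusted p = 0.0534) or CD8 WT 3 (0.0588). The call in KO was lost without CD11b KO 2 (log2 difference 0.22, adjusted p = 0.367), CD8 KO 1 (0.141) or CD8 KO 2 (0.117), and on unstranded counts (0.0596). The antisense gene Brd2 overlaps 10.4% of the exon bases. Of the H2-DMa counts on both strands, the opposite strand held from 0.666% (CD11b KO 2) to 1.73% (CD8 KO 1). The part of Brd2 in the change on unstranded counts was not tested.

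H2-DMb1 (ENSMUSG00000079547, chromosome 17, 34153072 to 34160230) stood at 214, 251 and 226 CPM in CD11b WT 1 to 3 and at 203 and 203 CPM in CD11b KO 1 and 2. Values at the label CD8 were 132, 129 and 139 CPM in WT 1 to 3 and 132 and 129 CPM in KO 1 and 2. The 2 labels were separated by a gap wider than the spread within either. Between labels the log2 difference was 0.79 ± 0.10 (SE; edgeR adjusted p = 5.32e-07), or 1.73-fold, in WT, and 0.64 ± 0.12 (adjusted p = 0.000178), or 1.56-fold, in KO.

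H2-DMb2 (ENSMUSG00000037548, chromosome 17, 34143307 to 34151555), which lies next to H2-DMb1, went the other way. It stood at 51.4, 63.7 and 67.2 CPM in CD11b WT 1 to 3 and at 66.7 and 62.7 CPM in CD11b KO 1 and 2. In CD8 WT 1 to 3 it stood at 250.4, 237 and 251 CPM, and in CD8 KO 1 and 2 at 206 and 236 CPM. The lowest library labelled CD8 stood far above the highest labelled CD11b. The log2 difference was -2.02 ± 0.11 (SE; edgeR adjusted p = 1.13e-12), or 4.05-fold lower at the label CD11b, in WT, and -1.77 ± 0.14 (adjusted p = 5.39e-10), or 3.42-fold lower, in KO. The range of its 10 libraries was the widest of the 10 genes, at 4.88-fold.

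H2-DMb1 and H2-DMb2 are close copies, so their split depends on reads that map to only 1 of them. Their coding sequences in the GENCODE annotation of GRCm38 are 786 bases each, with 754 identical bases and 32 that differ (95.9% identity). The stretch of exon 2 with the densest differences, 17 of 60 bases, is shown with the differing bases in capitals, since such positions are what tells the copies apart.
H2-DMb1, chr17:34155585-34155644, plus strand: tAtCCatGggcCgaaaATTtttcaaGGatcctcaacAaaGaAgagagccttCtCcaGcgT
H2-DMb2, chr17:34147803-34147862, plus strand: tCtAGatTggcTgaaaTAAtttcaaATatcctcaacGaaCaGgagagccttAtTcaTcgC

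Of all 50-base windows of the H2-DMb1 transcript, 27.2% occur unchanged in H2-DMb2, and of 100-base windows 13.7% do. Reads that mapped to more than 1 place were 21.7% to 25.5% of the reads of a library and were given to no gene. The level of each copy is thus a measure of its unique part, and both are given as uncertain in absolute level. A read moved between the copies would raise one and lower the other, and how many reads were misplaced was not tested.

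The DO genes encode the heterodimer that binds DM and restrains it. H2-Oa (ENSMUSG00000024334, chromosome 17, 34092340 to 34095234), the alpha chain, stood at 116, 92.3 and 111 CPM in CD11b WT 1 to 3 and at 88.6 and 88.8 CPM in CD11b KO 1 and 2. The CD8 WT libraries gave 176, 151 and 157 CPM in order of number, and the CD8 KO libraries 149 and 159 CPM. Every library labelled CD8 was above every library labelled CD11b. Between labels the log2 difference was -0.60 ± 0.11 (SE; edgeR adjusted p = 0.00013), or 1.51-fold lower at the label CD11b, in WT, and -0.80 ± 0.13 (adjusted p = 6.92e-05), or 1.74-fold lower, in KO. The antisense gene BC051537 overlaps 22.8% of the exon bases of H2-Oa, and the strand-specific counts used here keep the 2 apart.

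H2-Ob (ENSMUSG00000041538, chromosome 17, 34238903 to 34254414), the beta chain, stood at 196, 166 and 164 CPM in CD11b WT 1 to 3 and at 179 and 172 CPM in CD11b KO 1 and 2. Values at the label CD8 were 236, 197 and 194 CPM in WT 1 to 3 and 204 and 204 CPM in KO 1 and 2. The labels overlapped in WT and were apart in KO. The log2 difference was -0.25 ± 0.10 (SE; edgeR adjusted p = 0.0691) in WT and -0.22 ± 0.13 (adjusted p = 0.253) in KO, and neither passed. Without CD11b WT 1 the WT difference was -0.34 and passed (adjusted p = 0.0219).

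B cells also transcribe the DO genes and the rest of the set, and B cell markers moved in the same direction between labels as H2-Oa and H2-DMb2. The summed level of 15 B cell markers was 290 to 376 CPM in CD11b WT, 287 to 629 CPM in CD11b KO, 583 to 1181 CPM in CD8 WT and 1049 to 2840 CPM in CD8 KO. At the label CD11b, 1 or 2 of the markers were at 0 in each library, always including Vpreb3, and at the label CD8 none was. Of 14 markers tested, 9 were lower at the label CD11b in WT, beside 15.7% of all genes, and 13 in KO, beside 12.5%. None was higher by the test, but Fcrla lay at 7.06 to 11.6 CPM in CD11b WT and 3.21 to 6.36 CPM in CD8 WT. Cd79a lay at 1.21 to 1.96 CPM with the label CD11b, at 5.01 to 12.9 CPM in the other 4 libraries labelled CD8 and at 43.6 CPM in CD8 KO 2. Without CD8 KO 2, the H2-Oa difference in KO was -0.74, from a fit with 1 library left in CD8 KO. In WT it was -0.59, but CD8 KO 2 is not among the libraries compared there. Leaving that library out therefore says nothing on B cells in the WT difference. The other CD8 libraries still had higher B cell sums than all but the highest of those labelled CD11b, and the part of B cells in the values of the set was not tested.

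Markers of other cell types were summed in the same way. Plasma cell markers summed to 93.5 to 106 CPM in CD11b WT, 112 to 118 CPM in CD11b KO, 108 to 127 CPM in CD8 WT and 131 to 180 CPM in CD8 KO. At the label CD11b most of that sum was Xbp1, at 77.4 to 98.7 CPM there and 53.3 to 69.6 CPM with CD8. Of these 5 markers, 1 was higher and 4 were lower at the label CD11b in WT, beside 13.8% and 15.7% of all genes. In KO, 1 was higher and 3 were lower, beside 10.3% and 12.5%. Plasmacytoid dendritic cell markers summed to 101 to 167 CPM in CD11b WT, 125 to 140 CPM in CD11b KO, 97.4 to 107 CPM in CD8 WT and 113 to 144 CPM in CD8 KO. Members of that list went in different directions between labels: Siglech lay at 13.03 to 33.6 CPM with the label CD11b and 0.576 to 2.36 CPM with CD8, Ccr9 at 23.6 to 35.7 CPM and 3.04 to 7.48 CPM, and Tcf4 at 44.1 to 70.6 CPM and 74.5 to 97.1 CPM, while Klk1 was at 0 in every library labelled CD8. T cell markers summed to 8.34 to 14.3 CPM with the label CD11b and 15.3 to 22.1 CPM with CD8. Macrophage markers summed to 148 to 204 CPM at the label CD11b, 295 to 399 CPM in CD8 WT and 484 to 508 CPM in CD8 KO, and monocyte markers to 108 to 147 CPM at the label CD11b and 179 to 230 CPM at CD8. Of 10 macrophage markers, 1 was higher and 7 were lower at the label CD11b in WT, beside the shares given above. In KO, 0 were higher and 7 were lower. Neutrophil markers summed to at most 0.606 CPM at the label CD11b, 20.03 to 32.99 CPM in CD8 WT and 4.36 to 4.43 CPM in CD8 KO. Most of that was Mmp9, at 19.4 to 32.0 CPM in CD8 WT and 3.83 to 3.95 CPM in CD8 KO, and S100a9 reached at most 0.609 CPM in any library. The part of these cells in the label differences was not tested.

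Ciita (ENSMUSG00000022504, chromosome 16, 10480059 to 10528418) encodes the class II transactivator. It stood at 705, 660.2 and 695 CPM in CD11b WT 1 to 3 and at 618 and 659 CPM in CD11b KO 1 and 2. In CD8 WT 1 to 3 it stood at 739, 745 and 690.3 CPM, and in CD8 KO 1 and 2 at 692 and 619 CPM. The labels overlapped in each genotype, and the highest library was 1.21 times the lowest, the narrowest range of the 10 genes. Between labels the log2 difference was -0.08 ± 0.08 (SE; edgeR adjusted p = 0.52) in WT and -0.04 ± 0.10 (adjusted p = 0.843) in KO. Ciita has alternative promoters used by different cell types, which counts per gene do not resolve. The antisense gene Dexi overlaps 3.45% of its exon bases.

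**Figure D2:**
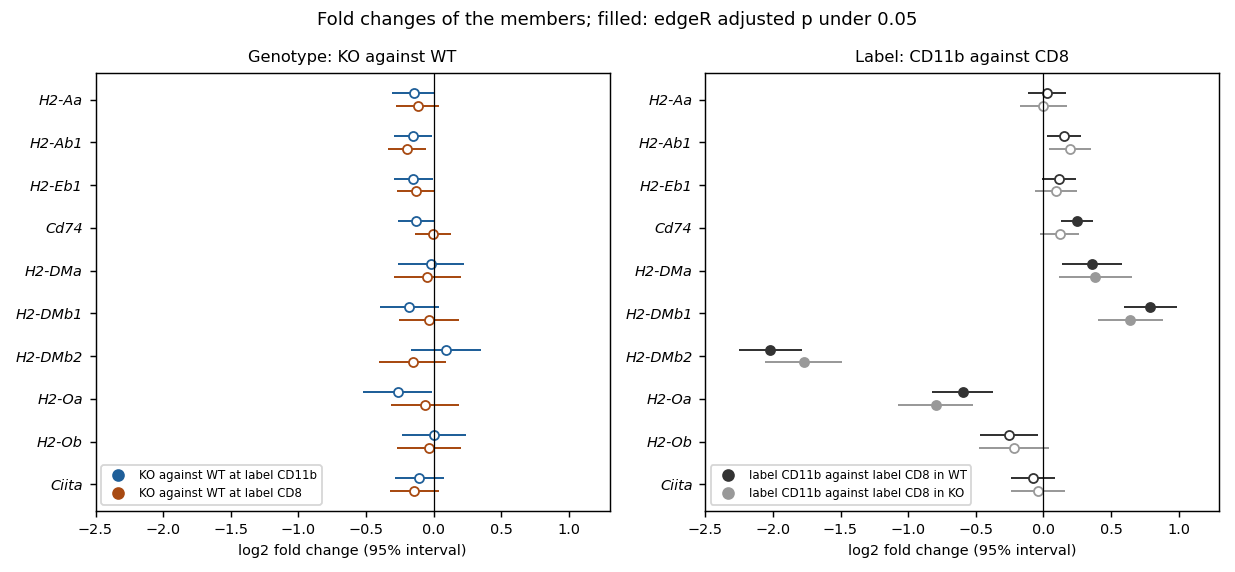
Log2 fold changes (horizontal axes) with 95% intervals for KO against WT at each label (left) and for the label CD11b against the label CD8 in each genotype (right), with filled points for an edgeR adjusted p under 0.05. No point is filled for genotype, and H2-DMb2 lies at -2.02 and -1.77 for the labels.

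Levels of different genes were compared as CPM per kilobase of the longest coding transcript. In CD11b WT the order was Cd74 at 10441 ± 121 (SD, n = 3), H2-Ab1 at 7107 ± 380, H2-Aa at 4008 ± 327 and H2-Eb1 at 2945 ± 82.9 CPM per kilobase, and these 4 led in the same order in every group. On the length of all exons joined, H2-Eb1 stood above H2-Aa in each group. In CD11b WT the others followed at 164 ± 13.6 for H2-DMb1, 114 ± 3.93 for Ciita, 102 ± 8.17 for H2-DMa, 98.0 ± 11.6 for H2-Oa, 65.6 ± 6.74 for H2-Ob and 41.0 ± 5.61 CPM per kilobase for H2-DMb2. H2-DMa and H2-Oa were neighbours whose libraries overlapped. In CD8 WT, H2-DMb2 came next after the chains at 166 ± 5.32 CPM per kilobase (SD, n = 3), followed by H2-Oa at 148 ± 12.4, Ciita at 121 ± 4.97, H2-DMb1 at 94.9 ± 3.81, H2-DMa at 79.8 ± 7.88 and H2-Ob at 78.2 ± 8.84. Libraries overlapped there between H2-DMb2 and H2-Oa and between H2-DMa and H2-Ob. By its mean per length of the longest transcript, H2-DMb2 was the lowest of the 10 genes at the label CD11b and the highest after Cd74 and the chains at the label CD8.

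Ratios between members within a library do not depend on library size, and 6 of them were tested by an exact permutation test. Each was tested between labels within genotype and between genotypes within label, which gave 12 tests. The ratio of H2-DMb2 to H2-DMb1 counts was 0.240, 0.254 and 0.298 in CD11b WT 1 to 3 and lay between 0.240 and 0.329 over the libraries labelled CD11b. It lay between 1.56 and 1.90 over those labelled CD8, a 6.12-fold difference (exact permutation test, two-sided, p = 0.0167, the smallest this design can give; Benjamini-Hochberg adjusted p = 0.04 over 12 tests). H2-DMb1 had the more counts of the 2 in all 5 libraries labelled CD11b, and H2-DMb2 in all 5 labelled CD8. The ratios were chosen after the values were seen. Both genes were already apart between the labels in opposite directions, so this ratio had to reach the smallest p. Its p adds no support beyond the values of the 2 genes, and its adjusted p rests on other ratios with the same p.

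The other ratios moved less. The beta to alpha ratio of DM, both beta genes over H2-DMa, was 1.19 to 1.57 with the label CD11b and 2.14 to 2.59 with CD8. The ratio of DO to DM counts was 0.490 to 0.647 and 0.648 to 0.735, H2-Oa over H2-Ob was 0.495 to 0.680 and 0.733 to 0.808, and the 3 chain genes over Ciita were 24.9 to 28.8 and 22.7 to 23.4. Each of these 4 gave the same exact permutation p of 0.0167, the smallest possible, and adjusted p of 0.04, and the DO to DM ranges nearly touched. They too were chosen after the values were seen, from genes already compared between the labels. Their p adds no support beyond the values of those genes, and their adjusted p rests on several ratios sharing the same p. Cd74 over the I-A chains was 1.05 to 1.19 and 0.999 to 1.15 (exact permutation p = 0.15, adjusted p = 0.225). Between genotypes no ratio passed; the smallest exact permutation p was 0.07 for H2-Oa over H2-Ob (adjusted p = 0.14). Counts were not corrected for length in these ratios, so only their change between libraries can be read.

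**Figure D3:**
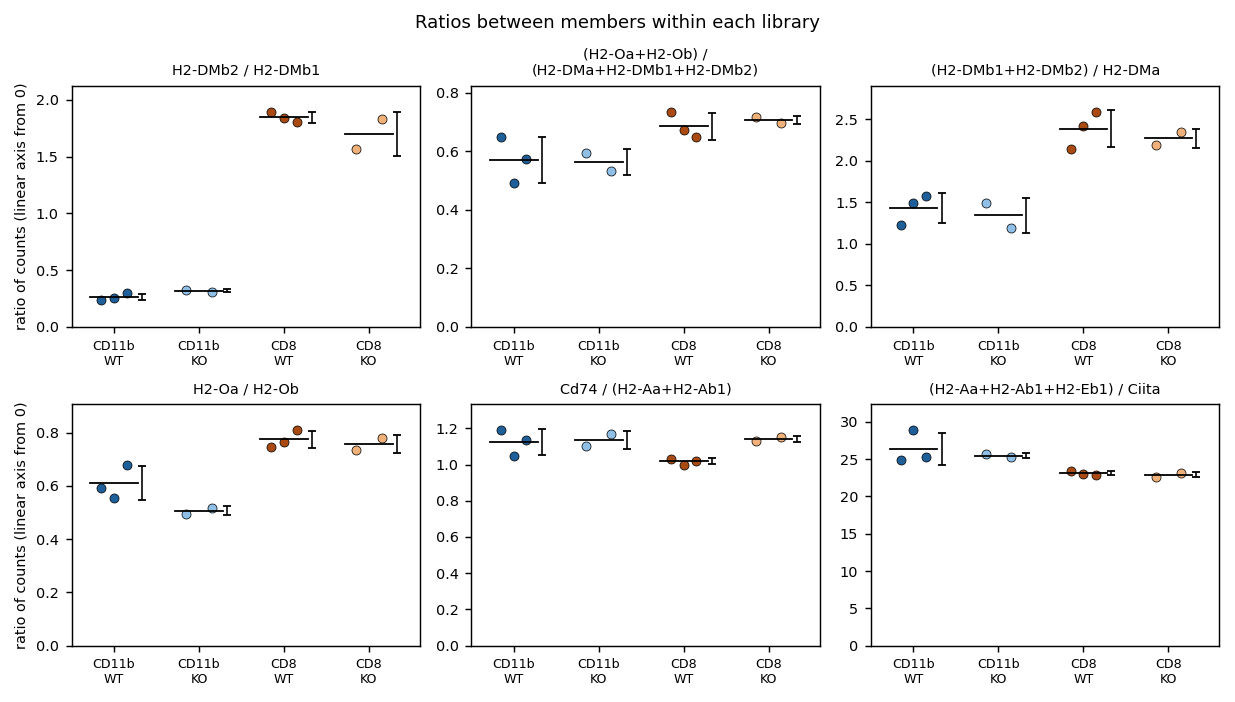
Ratios of counts between members within each library (vertical axes, linear from 0; points) with the mean (line) and SD (bar) of each of the 4 groups. The ratio of H2-DMb2 to H2-DMb1 lies at 0.240 to 0.329 with the label CD11b and 1.56 to 1.90 with CD8.

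The comparison of KO with WT asks what loss of Atg16l1 changes in the class II set. No gene of the set passed at either label (edgeR), where 0.145% of all genes passed at each. At an unadjusted p under 0.05 there were 4 of the 10 genes at the label CD11b, beside 6.42% of all genes, and 1 of the 10 at the label CD8, beside 6.53%. DESeq2 called none at either label, and limma-voom called none at the label CD11b and H2-Ab1 at the label CD8 (adjusted p = 0.0176). The shares of all genes passing above are those of edgeR, and those of limma-voom are not given. The log2 differences were small and mostly negative: 8 of 10 at the label CD11b, from -0.26 to 0.09 with a median of -0.14, and 10 of 10 at the label CD8, from -0.20 to -0.01 with a median of -0.09. The medians over all genes were -0.01 and 0.00. Libraries of the genotypes did not overlap for 6 of the 10 genes at the label CD11b, beside 20.5% of all genes, and for 2 of the 10 at the label CD8, beside 24%.

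The 4 genes under an unadjusted p of 0.05 at the label CD11b were H2-Ab1, H2-Eb1, Cd74 and H2-Oa. H2-Ab1 was 8613 ± 460 CPM in WT (SD, n = 3) and 7740 ± 211 CPM in KO (SD, n = 2), at a log2 difference of -0.15 and a 95% interval of -0.30 to -0.01 (edgeR adjusted p = 0.729). H2-Oa had the lowest value of the set, -0.26 with an interval of -0.52 to -0.01 (adjusted p = 0.769). H2-Eb1 and Cd74 stood at -0.15 and -0.13 (adjusted p = 0.752 and 0.773). At the label CD8, H2-Ab1 was 7765 ± 343 CPM in WT (SD, n = 3) and 6762 ± 534 CPM in KO (SD, n = 2), at a log2 difference of -0.20 and an interval of -0.34 to -0.06 (adjusted p = 0.479). Over the 10 genes the standard errors were 0.06 to 0.12 on the log2 scale at the label CD11b and at the label CD8. Ciita was -0.11 ± 0.09 and -0.14 ± 0.09 (SE), with neither passing.

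Over both labels together, a comparison added after the values were seen, 0 of the 10 genes passed in edgeR beside 0.289% of all genes, and 3 had an unadjusted p under 0.05, beside 8.43%. These 3 were H2-Ab1 at -0.18 ± 0.05 (SE; edgeR adjusted p = 0.152), H2-Eb1 at -0.14 ± 0.05 (adjusted p = 0.371) and H2-Aa at -0.13 ± 0.05 (adjusted p = 0.505). All 10 log2 differences were negative, with a median of -0.12. DESeq2 called none, and limma-voom called H2-Ab1 and H2-Eb1 (adjusted p = 0.00395 and 0.036). The share of all genes called by limma-voom is not given, so these calls cannot be set against it. This comparison uses the same libraries as the 2 within labels, so it is no independent result. The difference of the genotype effects between labels passed for 0 of the 10 genes in edgeR, beside 0.0206% of all genes, with 0 at an unadjusted p under 0.05 (5.46% of all genes) and none by DESeq2 or limma-voom. The same test says whether a label difference depended on genotype, and for H2-DMb2 it was -0.25 ± 0.17 (SE; adjusted p = 0.947).

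Other genes of the pathway were taken from lists set by their role. H2-Eb2, a further beta chain gene of the class II region, ranged over 13.4 to 26.4 CPM with the label CD11b and 115 to 151 CPM with CD8. Between labels the log2 difference was -2.68 ± 0.18 (SE; edgeR adjusted p = 2.11e-11) in WT and -2.84 ± 0.22 (adjusted p = 5.78e-10) in KO, so H2-Eb2 and H2-DMb2 both ran higher at the label CD8. In a list of 11 genes, the endosomal proteases and the reductase gene Ifi30, 1 was higher and 7 were lower at the label CD11b in WT, beside 13.8% and 15.7% of all genes. In KO, 1 was higher and 8 were lower, beside 10.3% and 12.5%. The list's median log2 difference was -0.85 in WT and -0.97 in KO, and over all genes it was 0.00 and -0.01.

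Ctss encodes cathepsin S, the protease that cuts the invariant chain in dendritic cells. It ranged over 343 to 431 CPM with the label CD11b and 654 to 782 CPM with CD8, a log2 difference of -0.85 ± 0.09 (SE; edgeR adjusted p = 3.04e-08) in WT. Lgmn, the asparagine endopeptidase, stood at 45.9 to 59.3 CPM and 181 to 222 CPM, with a log2 difference of -1.81 ± 0.11 (adjusted p = 3.23e-12) in WT. Ifi30, a thiol reductase that opens disulfides of antigens, stood at 257 to 326 CPM and 501.1 to 562 CPM. Ctse, an aspartic protease, was the gene of the list that was higher at the label CD11b, at 49.2 to 58.8 CPM beside 10.7 to 22.4 CPM. The labels did not overlap for any of these 4 genes, which were named from those of the list that had passed. Over all genes, the labels did not overlap for 41.5% in WT and 58.7% in KO.

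Among 3 protease inhibitors, Cst3, which encodes cystatin C, ranged over 2857 to 3242 CPM with the label CD11b and 339 to 436 CPM with CD8. Its log2 difference was 2.92 ± 0.08 (SE; edgeR adjusted p = 8.56e-18) in WT and 3.06 ± 0.10 (adjusted p = 2.87e-16) in KO. Cst7, which encodes cystatin F, had 2 counts over the CD11b WT libraries and 157 over CD8 WT, and it had 0 counts over CD11b KO and 139 over CD8 KO. Taking 3 counts per group as the lowest level, Cst7 was at least 43-fold lower at the label CD11b in KO. Of 3 genes of surface turnover, March1, a ubiquitin ligase that sends class II molecules to degradation, was higher at the label CD11b in WT by a log2 difference of 0.35 ± 0.13 (adjusted p = 0.0433). In KO its difference was 0.21 ± 0.16 and did not pass (adjusted p = 0.423). The call in WT was lost without CD11b WT 1 (log2 difference 0.36, adjusted p = 0.0748), CD11b WT 3 (0.25, 0.212), CD8 WT 2 (0.37, 0.0854), CD8 WT 3 (0.25, 0.21) or CD8 KO 1 (0.35, 0.0515), on unstranded counts (adjusted p = 0.056) and with no filter on low counts (0.0518).

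Among 16 factors of the promoters and of Ciita induction, 1 was higher and 6 were lower at the label CD11b in WT, again beside 13.8% and 15.7% of all genes. In KO, 1 was higher and 4 were lower, beside 10.3% and 12.5%. Irf8 ranged over 914 to 1080.5 CPM with the label CD11b and 165 to 240 CPM with CD8, a log2 difference of 2.40 ± 0.12 (SE; edgeR adjusted p = 2.68e-13) in WT. Irf4 stood at 30.3 to 43.8 CPM and 169 to 349 CPM, a log2 difference of -2.68 ± 0.13 (adjusted p = 7.92e-14) in WT. Both are also markers of the dendritic cell subsets. Rfx5, the DNA-binding subunit of the RFX complex, stood at 42.5 to 57.0 CPM and 71.0 to 75.3 CPM, a log2 difference of -0.69 ± 0.12 (adjusted p = 0.000106) in WT, and in KO it was -0.41 ± 0.15 and did not pass (adjusted p = 0.0512). The NF-Y subunit gene Nfya was lower by 0.41 on the log2 scale in WT (adjusted p = 0.00232).

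With genotype, Irf4 was the gene of these lists that passed. At the label CD8 it stood at 169 to 227 CPM in WT and 309 to 349 CPM in KO, a log2 difference of 0.67 ± 0.13 (SE; edgeR adjusted p = 0.0269). The genotypes did not overlap, but the call was lost without CD8 WT 3 (log2 difference 0.54, adjusted p = 0.168), CD8 KO 1 (0.58, 0.232) or CD8 KO 2 (0.76, 0.108). Plasma cells also transcribe Irf4. At the label CD8 the sums of macrophage, plasma cell and plasmacytoid dendritic cell markers were higher in every KO library than in every WT library, those of B cells overlapped, and the part of these cells in the difference was not tested. With the label CD11b it stood at 30.3 to 34.3 CPM in WT and 36.3 to 43.8 CPM in KO, a difference of 0.31 ± 0.14 that did not pass (adjusted p = 0.754). The difference between these effects was 0.36 ± 0.19 (adjusted p = 0.937), so the labels were not shown to differ.

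**Figure D4:**
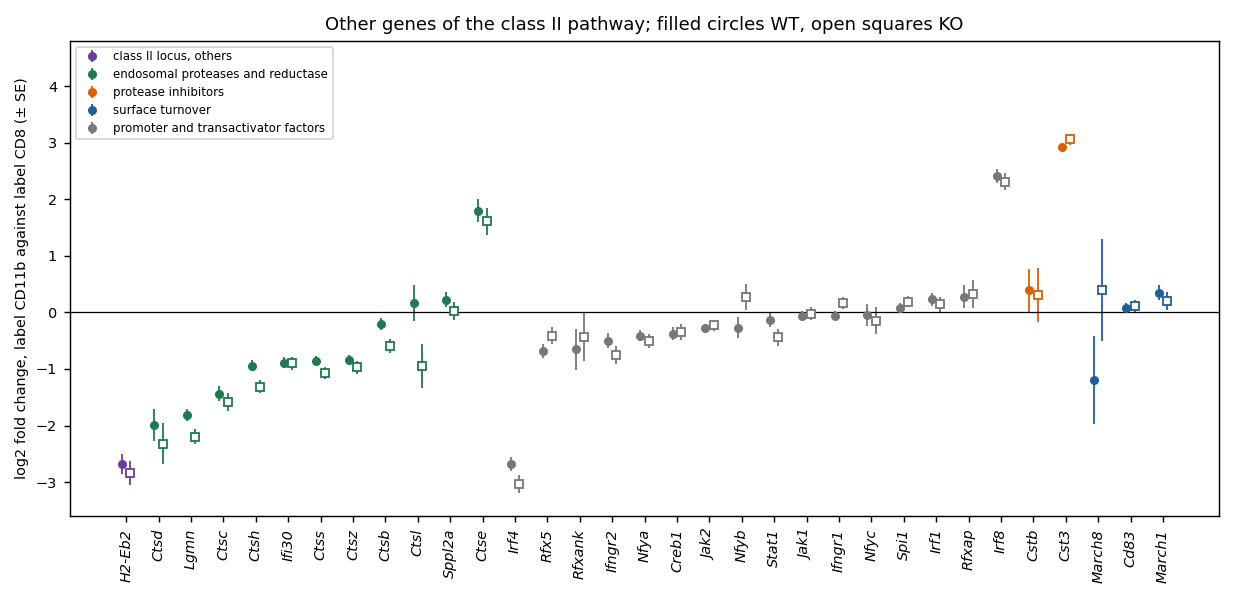
Log2 fold change (vertical axis, ± SE) of the label CD11b against the label CD8 for the other pathway genes tested, by list (colours), in WT (filled circles) and KO (open squares), without Cst7, which had 0 counts in CD11b KO. H2-Eb2 and most proteases lie below 0, and Cst3, Irf8 and Ctse lie above it.

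The genes most like 3 of the members in log2 CPM over the 10 libraries were taken from 8729 genes as a description, and the libraries share their labels and genotypes. For H2-DMb2 they were Fmnl3, Il4ra and Dtx1, with Pearson correlations of 0.996, 0.996 and 0.995. For H2-Oa they were Plaur (0.985), Gpr183 (0.981) and Zfp36l2 (0.980). For Ciita, whose labels overlapped, they were Eif2a (0.917), Idh3a (0.862) and Man2c1 (0.858). Among the 10 genes themselves, the correlation of H2-DMb2 was -0.96 with H2-DMb1 and 0.91 with H2-Oa, and the correlations of Ciita with H2-Aa, H2-Ab1 and H2-Eb1 were 0.58, 0.37 and 0.50.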

How the data were processed

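Members and lists were chosen with earlier results of these data known. Per the submitters' processing notes, STAR 2.5.0a and GRCm38 were used for alignment. The deposited files hold unnormalized counts for each gene and strand. Their 4 lines that name no gene stayed out of library sizes, and 59.2% to 67.8% of reads were given to no gene. Trimming, annotation release and duplicate handling are not given in the sources used here. The strand column used summed to 13.5 to 17.7 times the opposite one. Names and positions came from GENCODE (GRCm38), where 53274 of 53379 identifiers were found and 105 were not. Library preparation from total RNA with a small-input stranded kit is stated per the labels.

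CPM values used library sizes scaled by TMM. After filterByExpr by group, edgeR 4.0.16 (R 4.3.3) fitted 4 group means to the 10 libraries by quasi-likelihood, with a common dispersion of 0.0862, residual degrees of freedom of 6 and prior degrees of freedom of 16.1. P-values were adjusted by Benjamini-Hochberg over all 14528 genes and called under 0.05. The model was also run on simulated counts with known changes, whose outcome is not given here and is used for no result. Ratios were tested by exact permutation within strata. Intervals are 95%. The edgeR p-values set a difference against the spread between these libraries, with a variance drawn in part from all genes. Those of the permutation test rest on relabelling these libraries.

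By the naming rule, all 10 genes and Atg16l1 were named, any called gene of the pathway lists could be, and the 3 genes most like Ciita, H2-Oa and H2-DMb2 (mean of at least 5 CPM; pseudocount 0.5 CPM) were. Cd79a, Vpreb3, Fcrla, Xbp1, Siglech, Ccr9, Tcf4, Klk1, Mmp9, S100a9, Cd8a and Itgam were named from the marker lists after their values were seen.

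Alternatives were RLE size factors, no filter, 1 CPM in 3 libraries, counts without strand, library sizes without mitochondrial and ribosomal RNA genes, without immunoglobulin genes or without the 10 genes, limma-voom with quality weights (limma 3.58.1), DESeq2 1.42.0, fits of the compared libraries only, replicate blocks, and each library left out. The comparison over both labels and the ratios, and the alternatives for pathway genes, were added after seeing the data. Same-numbered libraries correlated at -0.04 to 0.06 in their deviations from group means, so the numbers were not taken to pair them.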

Additional observations from a re-analysis of the deposited data

How the results depend on the processing

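Over 23 alternative settings, 1248 of 1330 values of the 10 genes kept direction and side of the threshold, 18 passed only under the alternative, 7 passed only as reported and 57 changed sign; every value that changed sign was one that had not passed. Limma-voom called 1 gene for KO against WT at the label CD8, 8 between labels in WT (adding H2-Ab1, H2-Eb1 and H2-Ob), 6 in KO (adding H2-Ab1 and Cd74) and 2 over both labels. Shares of all genes called are not given for limma-voom or the other alternatives. Counts under them show only how the calls of the set moved, not how the set stood against all genes. With each library left out in turn, 4 to 7 genes passed between labels in WT, 3 to 5 in KO and 0 with genotype. With the replicate number as a replicate block, H2-Ob passed between labels in WT (edgeR adjusted p = 0.042; 0.0327 with genotype and number as the block), 6 genes passed in WT, H2-Ob was -0.044 with genotype at the label CD11b and H2-DMb2 0.013 over both labels; no other call changed. Signs changed at values near 0. Without CD11b WT 1 and CD8 KO 2, KO against WT was 0.027 for H2-DMa and -0.0091 for H2-DMb2 at the label CD11b, 0.055 for Cd74 at the label CD8 and 0.033 for H2-Ob over both labels, and the difference of effects was 0.057 for H2-Ab1 and 0.018 for Ciita. H2-DMa at the label CD11b was 0.0032 with limma-voom; H2-Ob there was -0.0079 without a filter and -0.013 unstranded, where the difference for Ciita was 0.021. H2-Aa between labels in KO was 0.0062 with RLE size factors and with DESeq2, 0.0039 at 1 CPM in 3 libraries and 0.0026 with limma-voom. Leaving out each library, KO against WT ranged at the label CD11b from -0.18 to 0.12 for H2-DMa, -0.017 to 0.17 for H2-DMb2 and -0.046 to 0.089 for H2-Ob. At the label CD8 it ranged from -0.062 to 0.055 for Cd74, -0.089 to 0.037 for H2-DMa, -0.11 to 0.0048 for H2-Oa and -0.086 to 0.062 for H2-Ob. Over both labels it ranged from -0.11 to 0.037 for H2-DMa, -0.086 to 0.016 for H2-DMb2 and -0.042 to 0.031 for H2-Ob. The difference of effects ranged from -0.039 to 0.095 for H2-Aa, -0.13 to 0.036 for H2-Ab1, -0.029 to 0.069 for H2-Eb1, -0.17 to 0.14 for H2-DMa, -0.12 to 0.061 for H2-Ob and -0.12 to 0.042 for Ciita. Between labels, H2-Aa ranged from -0.040 to 0.075 in WT and -0.069 to 0.064 in KO, and Ciita from -0.11 to 0.043 in KO. The causes were not tested. The 4 KO libraries limit the precision of the genotype comparisons.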
